A study of Mus musculus with 16 samples.

Results

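Antioxidant enzymes and targets of the transcription factor NRF2 were compared in ventricular cardiomyocytes of mice without and with the G protein-coupled estrogen receptor (GPER). The list held 42 genes, chosen by name for their known roles and read through the gene symbols of the array platform. The choice was made with earlier results of these data known. Where several probe sets read a gene, the brightest on average over the 16 arrays stood for it. Values were found for 37 of the 42 genes, among 17097 genes in all. Keap1, Prdx5, Prdx6, G6pdx and Mt2 had no probe set with a single symbol here and were not analysed here. Of the 37 genes, 18 had 1 probe set.

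NRF2, encoded by Nfe2l2, is held in the cytosol by KEAP1 and broken down. Oxidants and electrophiles modify KEAP1, and NRF2 then enters the nucleus and binds antioxidant response elements, short DNA motifs near genes for glutathione synthesis, thioredoxin reduction and detoxification. Superoxide dismutases turn superoxide into hydrogen peroxide, which catalase, glutathione peroxidases and peroxiredoxins remove. Cardiomyocytes are rich in mitochondria, a main source of superoxide in the heart, and keep separate enzymes for the mitochondrial matrix, the cytosol and the space outside the cell.

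The arrays (Affymetrix GeneAtlas MG-430 PM, 1 per mouse) cover 4 groups of 4 mice: male GPER KO, male intact, female GPER KO and female intact. Intact mice are labelled wild type, and the deletion is described as specific to cardiomyocytes, with no Cre driver named in the sources used here. The labels give an age of 15 weeks for all mice, and the study's methods a somewhat older one. Cells were isolated by enzymatic perfusion of the heart, and mice are named here by their animal numbers. All females have numbers 417 to 427 and all males 430 to 453. Differences between the sexes thus cannot be told apart from anything that ran with these numbers.

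Array medians were 3.47 to 3.51 on the log2 scale, and correlations between arrays were 0.982 to 0.997. The 11 measured cardiomyocyte markers stood at or above percentile 99.1 of all probe sets by mean signal. Of them 0 were called in any genotype comparison. Gper1 was read by 1 probe set of low signal (log2 2.64 to 3.11 over the 16 arrays, with overlapping groups). Its place in relation to the deletion is not known here, so it does not check the genotype labels. Eif2s3y, a Y-linked gene, was 4.13 higher (log2) in male than in female GPER KO mice, and 4.20 higher in male than in female intact mice. Of 17 macrophage markers, 16 had higher means in GPER KO than in intact males and 16 in GPER KO than in intact females. Their mean log2 value per array was 5.05 to 5.77 in male GPER KO, 4.61 to 5.20 in male intact, 4.81 to 5.15 in female GPER KO and 4.47 to 4.74 in female intact mice. By mean signal the 17 macrophage markers stood between percentiles 50.3 (Fcgr1) and 94.2 (Lyz2) of all probe sets. Adgre1 and Cd68, 2 defining markers of macrophages, stood at percentiles 66 and 50.9. Among the markers, Adgre1 (as EMR1) and Cd14 are genes the study listed from these same samples, so they are not independent evidence. In such bulk RNA, more cells of a type and more RNA per cell cannot be told apart.

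The antioxidant response element was looked for in the RefSeq promoter windows of the members (build GRCm38.p6, 250 bases before to 50 after the annotated start). Its core was written as TGACNNNGC on either strand. A window was found for 30 of the 37 genes. The core stood in the window of 7 of these 30 genes (23.3%), against 14% of all 27025 genes with a window. Of single windows, 12.4% of 32851 hold it. The 7 stretches are shown because they are the known type of NRF2 binding sequence within this gene list. Each is given 5′ to 3′ on the strand of its gene with the core in capitals, which reads GCNNNGTCA where the match is on the opposite strand.
Gclm, chr3:122245407-122245447, + strand: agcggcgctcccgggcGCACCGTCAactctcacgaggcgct
Mgst1, chr6:138140455-138140495, + strand: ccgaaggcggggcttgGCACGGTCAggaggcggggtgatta
Nfe2l2, chr2:75704879-75704913, - strand: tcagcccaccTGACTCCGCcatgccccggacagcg
Prdx1, chr4:116685450-116685490, + strand: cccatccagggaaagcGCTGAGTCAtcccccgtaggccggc
Sod1, chr16:90220690-90220730, + strand: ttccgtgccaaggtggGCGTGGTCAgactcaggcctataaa
Srxn1, chr2:152105542-152105570, + strand: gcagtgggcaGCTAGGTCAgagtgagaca
Txnrd1, chr10:82859098-82859138, + strand: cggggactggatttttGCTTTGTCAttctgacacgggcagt

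The core began 134 bases before the start in Gclm, 133 in Prdx1, 92 in Txnrd1, 56 in both Mgst1 and Sod1, and 240 in Nfe2l2, and 28 bases after it in Srxn1. Distances are counted from the transcript start on which the window was placed, which in Gclm and Txnrd1 lies downstream of the first base of the annotated gene and in the other 5 is that base. In Prdx1 it overlapped the motif TGANTCA, the AP-1 sequence, which 7.81% of all windows hold. A match of letters is not a binding site, and elements farther from the start were not looked at. Gsta4, Msra, Hmox1, Sod3, Gsr, Nnt and Gclc had no window in the table.

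Across the list, genotype differences were small. By limma with Benjamini-Hochberg adjustment over all 17097 genes, 0 of 37 members were called (adjusted p under 0.05) in males, where 0.62% of all genes were called. In females 0 of 37 were called, against 0.281% of all genes. In the mean of both sexes 1 of 37 was called, Gpx1, against 1.36% of all genes. In males 9 members passed an unadjusted p of 0.05 upward and 0 downward, against 7.05% and 3.06% of all genes. In females 3 passed upward and 5 downward, against 5.05% and 7.53% of all genes.

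Directions were uneven in males. There 29 of 37 members had a higher mean in GPER KO than in intact mice, with a median log2 difference of 0.093, against 56.5% of all genes and a median of 0.015. In females 13 of 37 were higher, with a median of -0.042, against 41.2% and -0.021 over all genes. The difference between the sexes in the genotype effect, male minus female, was above 0 in 31 of 37 members (median 0.14), against 62.5% of all genes (median 0.042). None of the 37 members and 0 of all genes (0%) were called for that difference by limma, although 1875 genes (11%), 8 members among them, passed an unadjusted p of 0.05. The plot of differences with their intervals shows how many of them include 0.

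**Figure D1:**
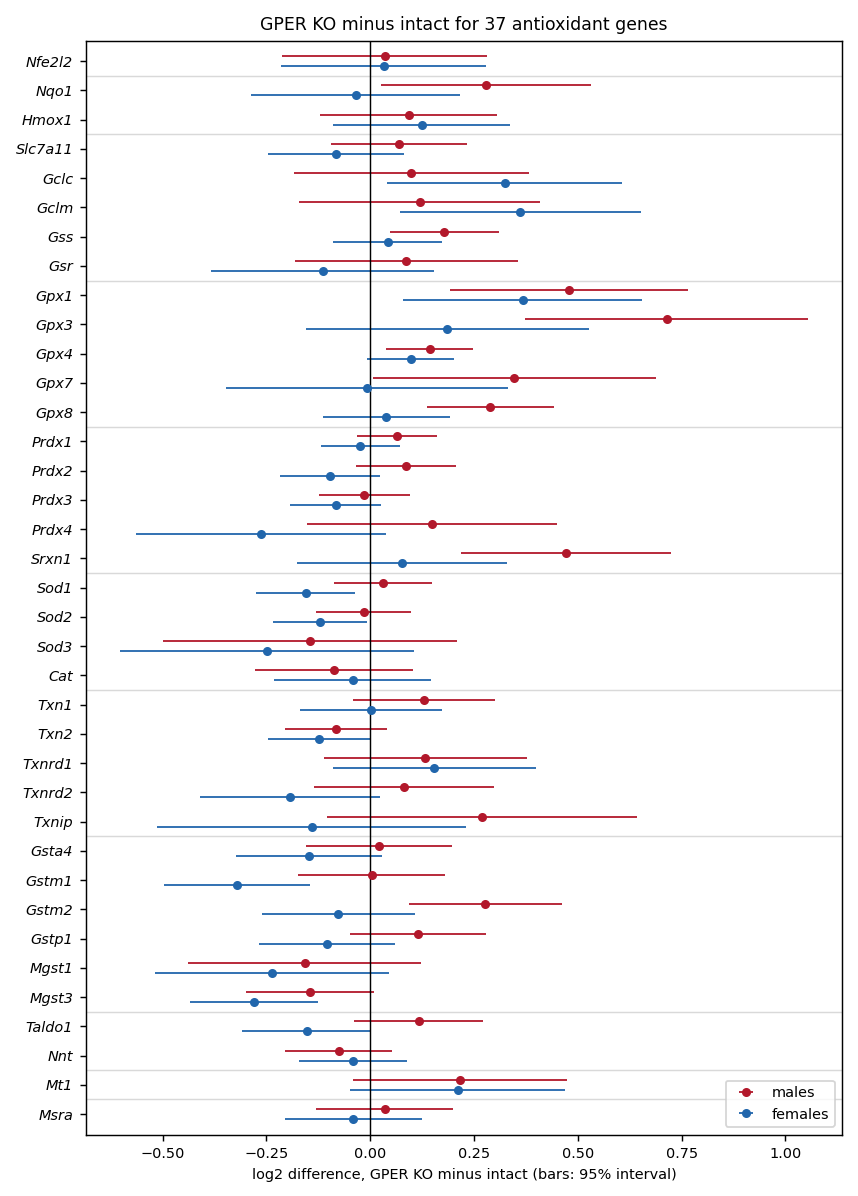
Log2 differences, GPER KO minus intact, of the 37 measured antioxidant genes in males (red) and females (blue), with 95% intervals from limma, ordered by role from the regulator at the top; grey lines part the roles. Most intervals include 0, and all 5 male values of the glutathione peroxidases (Gpx1 to Gpx8) lie right of 0.

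Nfe2l2 itself showed no difference beyond the spread between mice. The log2 values were 7.90, 7.84, 7.73 and 8.09 in male GPER KO mice, against 7.60, 7.96, 7.78 and 8.09 in male intact mice. Among females they were 7.81, 7.59, 8.11 and 7.89 in GPER KO mice, against 7.68, 7.87, 7.77 and 7.96 in intact mice. The groups overlapped in both sexes. The difference was 0.035 in males (95% interval -0.21 to 0.28) and 0.032 in females (-0.21 to 0.28), and leaving out 1 mouse was enough to turn either sign. NRF2 is controlled mainly through the stability of its protein, which arrays do not measure.

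Nqo1, a quinone reductase used as a reporter of NRF2 activity, had its highest mean in male GPER KO mice. It had log2 values of 7.34, 7.69, 7.37 and 7.93 in male GPER KO mice, against 7.34, 7.29, 7.34 and 7.27 in male intact mice. Female values were 7.05, 6.93, 7.21 and 7.18 in GPER KO mice, against 7.24, 6.92, 7.34 and 7.00 in intact mice. The male groups did not overlap, though only 432 and 451 stood clearly apart, and the female groups did. The male difference was 0.28 (SE 0.12, adjusted p = 0.422) and the female difference -0.035 (SE 0.12, adjusted p = 0.938). Leaving out male GPER KO 451 lowered the male difference to 0.16.

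Hmox1, the inducible heme oxygenase, was read at low log2 values throughout. They were 3.98, 3.97, 3.84 and 3.88 in male GPER KO mice, against 3.82, 3.82, 3.74 and 3.92 in male intact mice. In female mice they were 3.76, 3.77, 4.29 and 3.76 in GPER KO mice, against 3.64, 3.79, 3.92 and 3.73 in intact mice. One mouse, female GPER KO 426, stood above all others. The differences were 0.093 in males and 0.12 in females (SE 0.10 each), and the female one was -0.0072 without mouse 426.

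Of the genes of glutathione synthesis, 5 of 5 had higher means in GPER KO than in intact males and 3 of 5 in females, and none was called. Gclc and Gclm, the catalytic and modifier subunits of the enzyme that sets the rate of glutathione synthesis, had female differences of 0.32 (SE 0.13, adjusted p = 0.335) and 0.36 (SE 0.14, adjusted p = 0.292). Their male differences were 0.099 and 0.12. Gclm ranged between 6.50 and 7.23 in female GPER KO mice, against 6.43 to 6.69 in female intact mice, and mice 426 and 427 made up its upper end. Gss, glutathione synthetase, was 5.03 to 5.13 in male GPER KO mice, against 4.73 to 4.99 in male intact mice, groups that did not overlap (difference 0.18, SE 0.06, adjusted p = 0.274). Slc7a11, a subunit of the cystine importer, and Gsr, glutathione reductase, had differences of 0.069 and 0.087 in males and -0.083 and -0.11 in females.

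**Figure D2:**
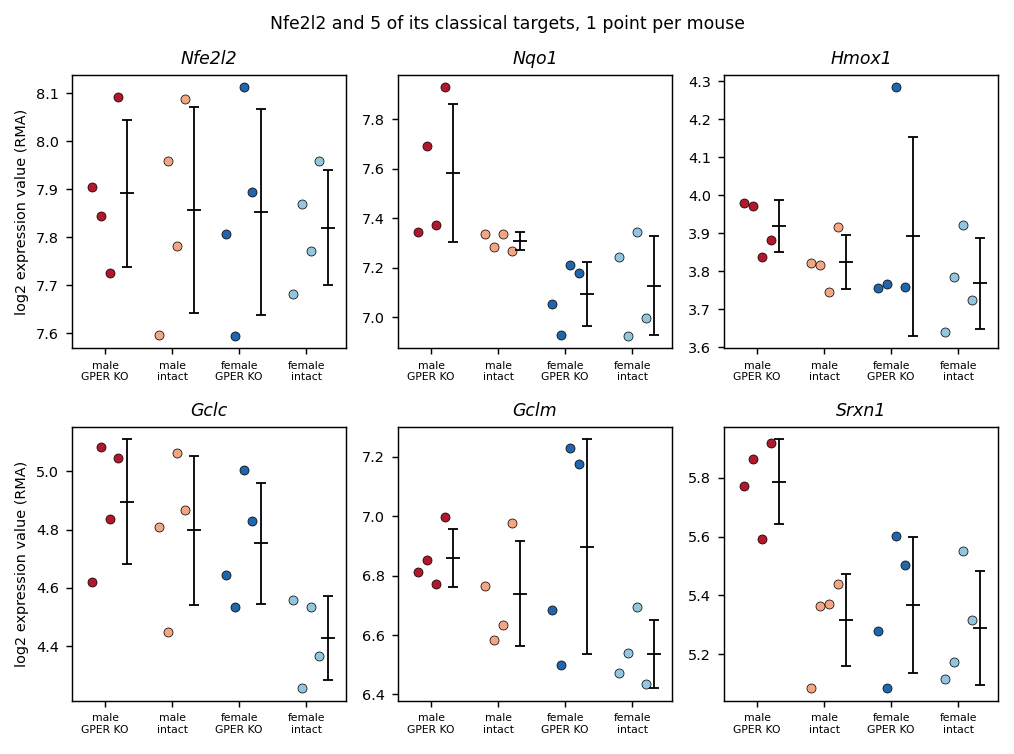
Log2 expression values of Nfe2l2 and of 5 classical NRF2 targets, 1 point per mouse, in male GPER KO, male intact, female GPER KO and female intact mice; the bars beside the points are mean and SD (n = 4), and each panel has its own axis. The male groups of Srxn1 and Nqo1 do not overlap, and the groups of Nfe2l2 and Hmox1 overlap in both sexes.

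The glutathione peroxidases, selenium or cysteine enzymes that reduce peroxides, had the highest male median of all roles on the list. All 5 had higher means in GPER KO than in intact males, with a median of 0.35. All 5 passed an unadjusted p of 0.05, and 4 of the 5 had groups that did not overlap, as did 4.24% of all genes in that direction. In females 4 of 5 had higher means, with a median of 0.097. In the same male comparison the macrophage markers had a median of 0.70, with 7 of 17 called, and their part in the peroxidase values was not tested.

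Gpx1, the glutathione peroxidase of cytosol and mitochondria, was the only member called for genotype. Its log2 values were 8.75, 8.79, 8.94 and 8.91 in male GPER KO mice, against 7.98, 8.24, 8.52 and 8.74 in male intact mice. In females they were 8.73, 8.72, 8.84 and 8.56 in GPER KO mice, against 8.21, 8.50, 8.56 and 8.10 in intact mice. The male groups did not overlap, by a margin of 1 hundredth between mice 431 and 453, and in females GPER KO 427 lay just under intact 422. The SD in males was 0.09 in GPER KO and 0.33 in intact mice, and in females 0.11 in GPER KO and 0.22 in intact mice.

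The mean difference over both sexes was 0.42 for Gpx1 (SE 0.10, 1.34-fold, adjusted p = 0.0372 by limma, n = 8 against 8). It was 0.48 in males (SE 0.14, adjusted p = 0.146) and 0.37 in females (SE 0.14, adjusted p = 0.278). The difference of these, 0.11 (95% interval -0.29 to 0.52), was not called. The call was near the threshold. It was lost when any 1 of 11 mice was left out (female GPER KO 417, 419 and 426, female intact 418 and 425, male GPER KO 431, 432, 444 and 451, male intact 430 and 433), with a highest adjusted p of 0.0894 and differences of 0.36 to 0.48 over all 16 mice left out in turn. In the same comparison 17 of 17 macrophage markers had higher means, with a median of 0.57 and 7 called. Their part in the Gpx1 value was not tested.

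Gpx1 lies at chr9:108339080-108340342 (GRCm38.p6), and the 250 bases before its start are given because it was the member called. Neither TGACNNNGC nor TGANTCA was found in its window, so no letters are in capitals, which says nothing of binding elsewhere.
Gpx1, chr9:108338830-108339079, + strand: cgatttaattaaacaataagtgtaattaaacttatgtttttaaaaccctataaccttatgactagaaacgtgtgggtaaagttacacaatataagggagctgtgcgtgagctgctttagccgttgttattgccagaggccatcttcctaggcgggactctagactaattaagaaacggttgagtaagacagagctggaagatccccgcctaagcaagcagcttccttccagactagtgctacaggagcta

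Gpx3, the secreted glutathione peroxidase of plasma, had the largest male difference of all 37 members. The log2 values were 9.21, 9.16, 9.15 and 8.85 in male GPER KO mice, against 8.35, 8.28, 8.43 and 8.45 in male intact mice. Among females they were 8.51, 8.78, 9.19 and 8.87 in GPER KO mice, against 8.26, 8.90, 9.06 and 8.39 in intact mice. The male groups lay well apart and the female groups overlapped. Female intact 421 and 422 were within the range of GPER KO mice.

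The male difference in Gpx3 was 0.71 (SE 0.16, 1.64-fold, adjusted p = 0.058), the female difference 0.19 (SE 0.16, adjusted p = 0.68) and their mean 0.45 (SE 0.11, adjusted p = 0.0664). The difference between the sexes was 0.53 (95% interval 0.05 to 1.01, adjusted p = 0.427). Its male value crossed the threshold with the male arrays alone (adjusted p = 0.00822) and without any 1 of female GPER KO 417 and 426 and female intact 418 and 422, with a lowest adjusted p of 0.0289. Without any other 1 mouse it did not, with a highest adjusted p of 0.175 without male GPER KO 431, and it was 0.0728 with every probe set. Female intact 421 and 422, the intact females with the highest Gpx3 values, were also left out together, the only pair so treated. The adjusted p was then 0.00935 in males. In that setting the mean over both sexes was 0.61 (adjusted p = 0.00334). Because this pair holds the highest intact female values, leaving it out is not an independent check of Gpx3.

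Gpx4, which reduces lipid peroxides in membranes, was the 1 member whose GPER KO mice lay above the intact mice in both sexes, as they did for 0.38% of all genes. In females alone it was 1 of 37 in that direction, against 1.95% of all genes. It spanned 11.15 to 11.30 in male GPER KO mice, against 11.02 to 11.10 in male intact mice. In females it spanned 11.07 to 11.14 in GPER KO mice, against 10.92 to 11.07 in intact mice, where the groups met within 1 hundredth. The differences were small, 0.14 in males (SE 0.05, adjusted p = 0.27) and 0.097 in females (SE 0.05, adjusted p = 0.432).

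Gpx8, a peroxidase of the endoplasmic reticulum, separated the genotypes in males. It had log2 values of 6.94, 6.93, 6.99 and 6.96 in male GPER KO mice, against 6.71, 6.51, 6.68 and 6.76 in male intact mice. Among females it had 6.79, 6.90, 7.05 and 7.08 in GPER KO mice, against 6.94, 6.95, 6.98 and 6.78 in intact mice. Male intact mice were the low group, and the other 3 groups overlapped. The male difference was 0.29 (SE 0.07, adjusted p = 0.0955) and the female one 0.039 (SE 0.07). Gpx7, also of the endoplasmic reticulum, had a male difference of 0.35 (SE 0.16, adjusted p = 0.48), with overlapping groups, and a female one of -0.0081.

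**Figure D3:**
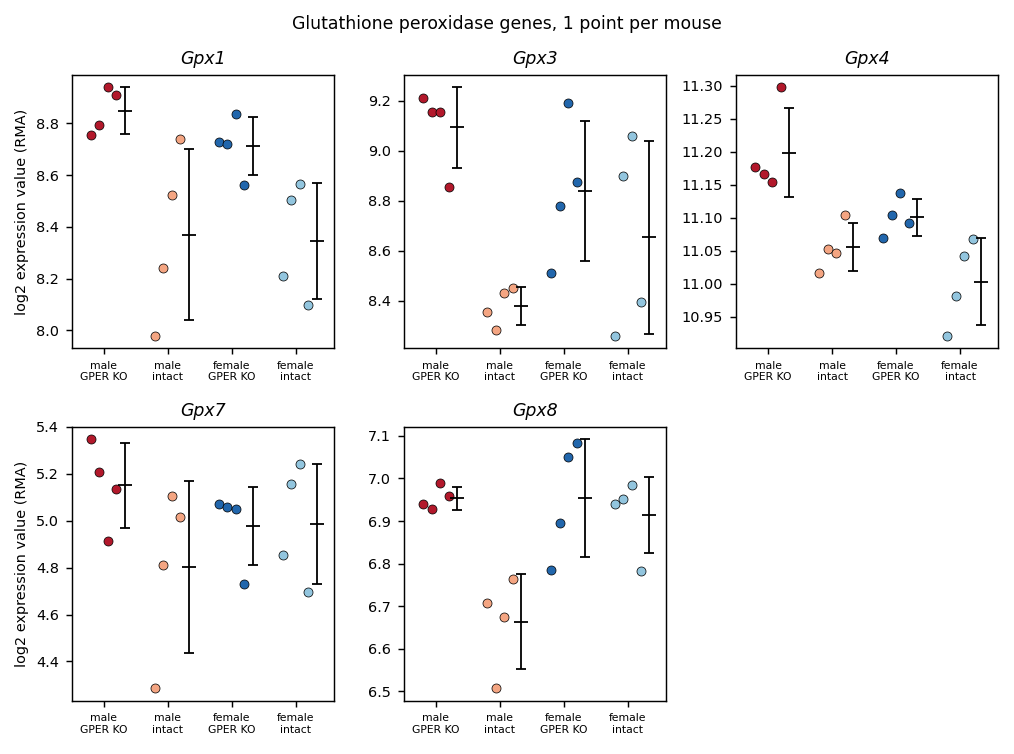
Log2 expression values of the 5 measured glutathione peroxidase genes, 1 point per mouse, in male GPER KO, male intact, female GPER KO and female intact mice; the bars beside the points are mean and SD (n = 4), and each panel has its own axis. The male groups do not overlap for Gpx1, Gpx3, Gpx4 and Gpx8, and the female groups of Gpx1, Gpx3, Gpx7 and Gpx8 do.

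Sulfiredoxin (Srxn1), which restores overoxidised peroxiredoxins, had its highest mean in male GPER KO mice. Its log2 values were 5.77, 5.86, 5.59 and 5.92 in male GPER KO mice, against 5.09, 5.36, 5.37 and 5.44 in male intact mice. In female mice they were 5.28, 5.08, 5.60 and 5.50 in GPER KO mice, against 5.12, 5.17, 5.55 and 5.32 in intact mice. The male groups did not overlap, and the female groups did. The male difference was 0.47 (SE 0.12, 1.39-fold, adjusted p = 0.102) and the female difference 0.077 (SE 0.12, adjusted p = 0.838). With the mean of its probe sets the male difference was 0.25 (adjusted p = 0.223). The other probe sets of Srxn1, from high to low signal, showed 0.18, 0.17 and 0.19 in males. In females they showed 0.19, -0.00063 and 0.12, so the contrast between the sexes rests on the probe set used.

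The peroxiredoxins, abundant thiol enzymes that remove hydrogen peroxide, differed little. Prdx1 and Prdx2 of the cytosol had differences of 0.064 and 0.087 in males and of -0.024 and -0.097 in females. The Prdx1 groups of males did not overlap, and its within-group SD of 0.04 was the lowest of all members. Prdx4 of the endoplasmic reticulum had 0.15 in males and -0.26 in females (SE 0.14 each), with overlapping groups in both sexes.

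Of the dismutases and catalase, none was called. Sod1, the cytosolic copper-zinc enzyme, was lower in every female GPER KO mouse than in any female intact mouse, as were Gstm1 and Mgst3, making 3 of 37 members against 3.73% of all genes. The log2 values were 9.82, 9.82, 9.71 and 9.83 in male GPER KO mice, against 9.71, 9.67, 9.81 and 9.87 in male intact mice. In females they were 9.84, 9.87, 9.85 and 9.79 in GPER KO mice, against 9.99, 10.02, 10.06 and 9.90 in intact mice. Female intact mice were the high group. The female difference was -0.16 (SE 0.06, adjusted p = 0.265) and the male difference 0.031 (SE 0.06, adjusted p = 0.911).

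Sod3, the dismutase outside the cell, was among the 2 members with the largest spread between mice of a group (SD 0.27, percentile 94.3 of all genes). It had log2 values of 5.29, 5.32, 5.36 and 5.55 in male GPER KO mice, against 5.15, 5.28, 5.81 and 5.86 in male intact mice. In the other sex it had 5.30, 5.33, 5.18 and 4.84 in GPER KO mice, against 5.36, 5.65, 5.61 and 5.02 in intact mice. The groups overlapped in both sexes, with differences of -0.14 in males and -0.25 in females (SE 0.17 each). Cat, the catalase of peroxisomes, had -0.087 in males and -0.042 in females (SE 0.09 each).

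In the thioredoxin system the cytosolic Txn1 and Txnrd1, a disulfide reductant and its reductase, had male differences of 0.13 each and female differences of 0.0011 and 0.15. Txnip, which binds and inhibits thioredoxin, had the largest within-group SD of all members, 0.28 (percentile 95.1). Its log2 values were 10.55, 9.88, 10.13 and 10.30 in male GPER KO mice, against 10.15, 9.68, 9.97 and 9.97 in male intact mice. Among females they were 10.57, 10.42, 9.64 and 10.07 in GPER KO mice, against 10.51, 10.38, 10.26 and 10.11 in intact mice. The groups overlapped in both sexes, and neither difference (0.27 in males, -0.14 in females, SE 0.18 each) was called. Over the whole list the median within-group SD was 0.13, against 0.11 for all genes.

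All 5 enzymes found only in mitochondria had lower means in GPER KO than in intact females, against 58.8% of all genes. Their median was -0.12. In males 4 of 5 had lower means, against 43.5% of all genes. The male median was -0.016, close to 0, and did not keep its sign. It ranged over -0.055 to 0.0092 with 1 mouse left out, above 0 without male intact 430, and was 0.022 with the enzymes of several places counted as mitochondrial. Of the 14 cytosolic and 2 secreted members, 15 of 16 had higher means in GPER KO males (median 0.12), against 56.5% of all genes. In GPER KO females 7 of 16 did (median -0.029), against 41.2%. None of these 21 genes was called in either sex, and the classes were not tested against each other. Txnrd2 is among the genes the study listed from these same samples, so it is not independent evidence of a direction.

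Prdx3, the peroxiredoxin of the matrix, had log2 values of 10.11, 10.18, 10.09 and 10.13 in male GPER KO mice, against 10.22, 10.02, 10.20 and 10.14 in male intact mice. In females it had 10.09, 9.99, 10.13 and 10.07 in GPER KO mice, against 10.13, 10.15, 10.20 and 10.15 in intact mice. Only female GPER KO 426 reached the level of an intact female. The differences were -0.014 in males and -0.083 in females (SE 0.05 each).

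Sod2, the manganese dismutase of the matrix, had log2 values of 10.88, 10.91, 10.89 and 10.98 in male GPER KO mice, against 11.01, 10.85, 10.87 and 10.99 in male intact mice. Female values were 10.75, 10.70, 10.85 and 10.83 in GPER KO mice, against 10.94, 10.94, 10.84 and 10.88 in intact mice. The female groups crossed at a single pair, GPER KO 426 and intact 422. The female difference was -0.12 (SE 0.05, adjusted p = 0.37) and the male difference -0.016. The other probe sets of Sod2, from high to low signal, showed -0.063, -0.17 and -0.076 in males. In females they showed -0.10, -0.18 and -0.20.

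Txn2, the mitochondrial thioredoxin, had log2 values of 9.25, 9.19, 9.22 and 9.38 in male GPER KO mice, against 9.25, 9.33, 9.40 and 9.39 in male intact mice. Among females it had 9.18, 9.19, 9.31 and 9.24 in GPER KO mice, against 9.26, 9.42, 9.40 and 9.33 in intact mice. The groups overlapped in both sexes. The mean difference was -0.10 (SE 0.04, adjusted p = 0.309), with -0.083 in males and -0.12 in females. Its other probe sets showed -0.00087 and 0.027 in males and -0.16 and -0.21 in females.

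Txnrd2, the reductase of mitochondrial thioredoxin, had log2 values of 6.81, 7.01, 6.52 and 7.06 in male GPER KO mice, against 6.78, 6.66, 6.79 and 6.85 in male intact mice. In the other sex it had 6.71, 6.59, 6.82 and 6.81 in GPER KO mice, against 6.85, 7.08, 7.00 and 6.78 in intact mice. Male GPER KO mice were spread around the intact ones. The differences were 0.081 in males and -0.19 in females (SE 0.10 each).

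Nnt, the proton-driven transhydrogenase that makes NADPH in the inner membrane, had log2 values of 11.10, 11.21, 11.06 and 11.24 in male GPER KO mice, against 11.28, 11.26, 11.29 and 11.09 in male intact mice. In females it had 11.32, 11.15, 11.18 and 11.17 in GPER KO mice, against 11.29, 11.21, 11.26 and 11.22 in intact mice. Male intact 453 fell among the GPER KO males. The differences were -0.076 in males and -0.041 in females (SE 0.06 each).

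**Figure D4:**
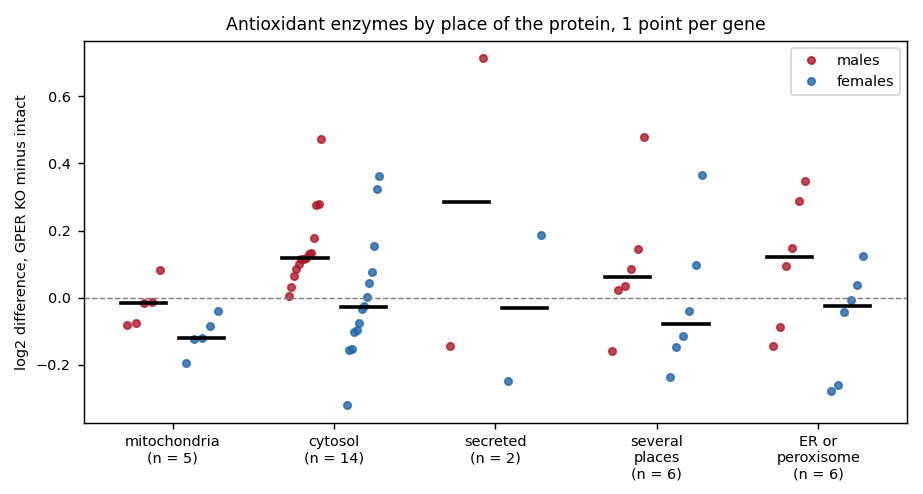
Log2 differences, GPER KO minus intact, by the place of the protein, 1 point per gene, in males (red) and females (blue); black lines are medians. Female mitochondrial points are all below 0 (median -0.12), and 15 of the 16 cytosolic and secreted points are above 0 in males (median 0.12).

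Enzymes found in several places (Gsr, Gpx1, Gpx4, Gsta4, Mgst1 and Msra, the last a methionine sulfoxide reductase) were higher in 5 of 6 cases in GPER KO males and in 2 of 6 (Gpx1 and Gpx4) in GPER KO females. Those of the endoplasmic reticulum or peroxisome were higher in 4 of 6 cases in males and in 2 of 6 in females.

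The glutathione transferases, which join glutathione to electrophiles, had lower means in GPER KO than in intact females in 6 of 6 cases (median -0.19), and in males in 2 of 6 (median 0.013). None was called. Gstm1, a cytosolic transferase, had log2 values of 8.94, 9.02, 8.88 and 8.97 in male GPER KO mice, against 8.81, 8.96, 9.0 and 9.04 in male intact mice. Female values were 8.55, 8.89, 8.95 and 8.68 in GPER KO mice, against 8.96, 9.15, 9.18 and 9.06 in intact mice. The female groups did not overlap, and the male groups did. The female difference was -0.32 (SE 0.08, adjusted p = 0.149) and the male difference 0.0036. The probe set used can also bind related sequences, so its signal may include close family members. Of the 4 probe sets of Gstm1, the others, from high to low signal, showed -0.37, -0.19 and -0.032 in females. In males they showed 0.023, -0.049 and 0.046.

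Gstm2, a related cytosolic transferase, had log2 values of 8.47, 8.47, 8.25 and 8.60 in male GPER KO mice, against 8.25, 8.04, 8.20 and 8.19 in male intact mice. Among females it had 8.07, 8.37, 8.44 and 8.22 in GPER KO mice, against 8.32, 8.24, 8.40 and 8.44 in intact mice. Male intact mice were the low group, and the male groups met at mice 444 and 430. The difference between the sexes in the genotype effect was 0.35 for Gstm2 and 0.32 for Gstm1 (SE 0.12 each, adjusted p = 0.426 for both).

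Mgst3, a microsomal transferase that also reduces lipid peroxides, came closest to a call in the downward direction. The log2 values were 10.01, 10.10, 9.83 and 10.19 in male GPER KO mice, against 10.10, 10.20, 10.23 and 10.18 in male intact mice. In female mice they were 9.96, 9.95, 9.99 and 9.92 in GPER KO mice, against 10.17, 10.28, 10.37 and 10.10 in intact mice. The female groups did not overlap, and in males 451 lay among the intact mice. The mean difference was -0.21 (SE 0.05, adjusted p = 0.0534), with -0.28 in females (SE 0.07, adjusted p = 0.149) and -0.14 in males (SE 0.07, adjusted p = 0.534). Without male GPER KO 451 the mean difference was -0.24 and without female intact 425 it was -0.23, and both values passed the threshold (lowest adjusted p = 0.0234). Without any other 1 mouse it was not called (highest adjusted p = 0.114, without male intact 452), and without female intact 421 and 422 together it was -0.17 (adjusted p = 0.204).

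Between the sexes 1 member stood apart, Mgst1, another microsomal transferase, which was higher in males of both genotypes. Its log2 values were 8.85, 9.19, 8.90 and 9.11 in male GPER KO mice, against 8.14, 8.02, 8.43 and 8.42 in female GPER KO mice. In intact mice they were 8.96, 9.12, 9.10 and 9.51 in males, against 8.28, 8.63, 8.71 and 8.34 in females. The lowest male was above the highest female in both genotypes. In that direction 4 of 37 members (Mgst1, Nqo1, Gpx4 and Sod2) did not overlap in GPER KO mice, against 4.37% of all genes, and 2 (Mgst1 and Txnrd1) in intact mice, against 3.05%. The difference, male minus female, was 0.76 in GPER KO mice (SE 0.13, 1.69-fold, adjusted p = 0.0451) and 0.68 in intact mice (SE 0.13, 1.6-fold, adjusted p = 0.0421).

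Mgst1 was the only member called between the sexes in either genotype, where 0.0702% of all genes were called in GPER KO and 0.579% in intact mice. Its calls were near the threshold: of the 16 mice left out in turn, the GPER KO call held only without female intact 422 or 425 or male intact 430 or 453, and was lost without any 1 of the other 12 (differences 0.68 to 0.82, highest adjusted p = 0.199). The intact call was lost without any 1 of 9 mice, namely female GPER KO 417, 426 and 427, female intact 421 and 422, male GPER KO 431 and male intact 433, 452 and 453 (differences 0.57 to 0.75, highest adjusted p = 0.0853). With the mean of its probe sets neither call held, at 0.36 in GPER KO and 0.30 in intact mice. A second probe set of the gene, at percentile 23.3 of the signal, showed -0.030 in GPER KO and -0.072 in intact mice. Mgst1 did not differ by genotype beyond the spread, at -0.16 in males and -0.24 in females (SE 0.13 each).

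**Figure D5:**
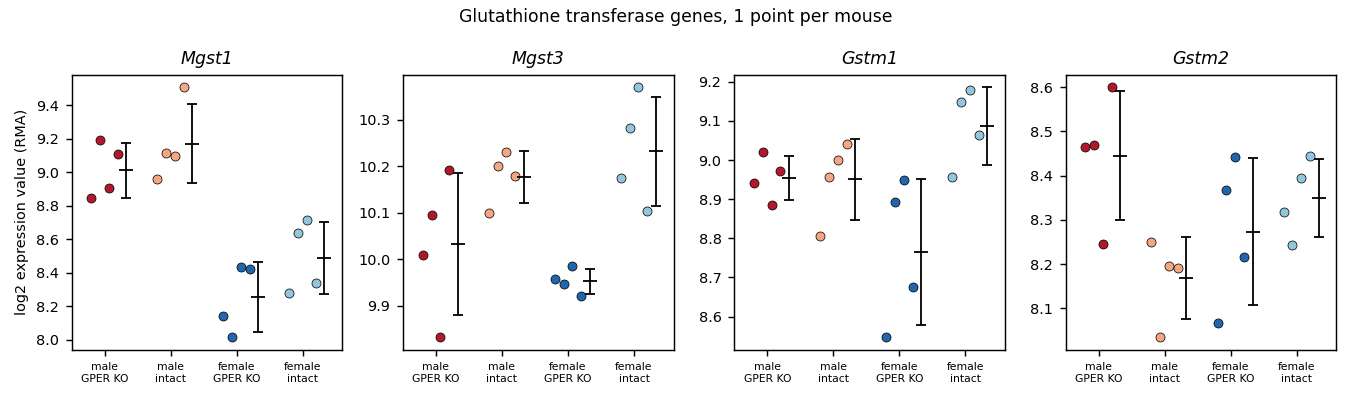
Log2 expression values of 4 glutathione transferase genes, 1 point per mouse, in male GPER KO, male intact, female GPER KO and female intact mice; the bars beside the points are mean and SD (n = 4), and each panel has its own axis. Both male groups lie above both female groups for Mgst1, and female GPER KO mice lie below female intact mice for Mgst3 and Gstm1.

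Other members differed by sex in one genotype without being called. In GPER KO mice 31 of 37 members were higher in males than in females (median 0.11), against 55.9% of all genes (median 0.015). In intact mice 16 of 37 were higher in males (median -0.015), against 42.2% (median -0.022). Among GPER KO mice Nqo1 was 0.49 higher in males (SE 0.12, adjusted p = 0.167) and Srxn1 0.42 higher (SE 0.12, adjusted p = 0.209). These 2 differences use the same GPER KO males as the genotype comparison. For male minus female in GPER KO mice, the other probe sets of Srxn1, from high to low signal, showed 0.071, -0.033 and 0.16.

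Among intact mice Sod1 had a male minus female difference of -0.23 (SE 0.06, adjusted p = 0.0668). Taldo1, transaldolase of the pentose phosphate pathway that supplies NADPH, had one of -0.27 (SE 0.07, adjusted p = 0.0838). Taldo1 log2 values were 7.91, 7.96, 7.77 and 7.99 in male GPER KO mice, against 7.75, 7.80, 7.73 and 7.89 in male intact mice. In females they were 7.86, 7.87, 7.98 and 7.94 in GPER KO mice, against 8.13, 8.19, 8.10 and 7.84 in intact mice. Female intact mice other than 425 were high. Without 425 the sex difference in Taldo1 was -0.35 (adjusted p = 0.0164) and that in Sod1 was -0.26 (adjusted p = 0.037), the only mouse whose omission brought either past the threshold. Without female intact 421 and 422 together the values were -0.19 for Taldo1 (adjusted p = 0.509) and -0.18 for Sod1 (adjusted p = 0.433), and the mean of its probe sets gave -0.053 for Sod1 (adjusted p = 0.65).

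Mt1, a metallothionein that binds zinc and scavenges radicals, had differences of 0.22 in males and 0.21 in females (SE 0.12 each, not called). Its second probe set had -0.28 in males and -0.10 in females, and so ran the other way. Msra had 0.035 in males and -0.041 in females, and Gsta4 and Gstp1 had 0.022 and 0.11 in males and -0.15 and -0.10 in females.

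In males and in females, members with an antioxidant response element core in the promoter window had medians closer to 0 than those without it. The female medians lay on opposite sides of 0, and in the mean of both sexes the order was reversed. In males 6 of the 7 such genes had higher means in GPER KO mice (median 0.064), against 18 of the 23 genes whose window lacked it (median 0.13). In females 4 of 7 were higher (median 0.032), against 7 of 23 (median -0.083). Of all genes, 56.5% were higher in GPER KO males and 41.2% in GPER KO females. In the mean of both sexes the medians were 0.034 with the core and 0.0051 without it. These values are a description of few genes.

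Outside the list, 14 of 16 regulators and binding partners of NRF2 were measured, and none was called in males, in females or in the mean of both. The closest in the mean was Nfe2l1, a related transcription factor, at -0.12 (SE 0.06, adjusted p = 0.415). Bach1, a repressor that competes with NRF2 for its elements, had -0.27 in males (SE 0.12, adjusted p = 0.457) and 0.25 in females (SE 0.12, adjusted p = 0.421). Of 43 further NRF2 targets 40 were measured, and 1 was called in the mean, Ephx1, the microsomal epoxide hydrolase, at 0.76 (SE 0.18, adjusted p = 0.0433). Its difference was 0.85 in males and 0.66 in females, not called in either sex.

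Of 41 other redox enzymes 39 were measured and none was called. Selenow and Pon2, a selenoprotein and a paraoxonase, came closest in the mean, with 0.21 each (adjusted p = 0.109 and 0.129). Of 10 genes of mitochondrial NADPH supply 8 were measured and none was called, the closest being Glud1, glutamate dehydrogenase, at -0.19 (SE 0.05, adjusted p = 0.0847). Of 21 genes for sources of reactive oxygen 14 were measured. Of these Maob, the outer-membrane monoamine oxidase that releases hydrogen peroxide, fell by 0.84 in GPER KO females (SE 0.11, adjusted p = 0.00231) and by 0.66 in the mean (SE 0.08, adjusted p = 0.000262). In males its difference was -0.48 (SE 0.11, adjusted p = 0.0654). Maob and Glud1 are among the genes the study listed from these same samples, so their values here are not independent evidence.

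Among marker lists of other cells, macrophage markers had a median difference of 0.42 in females, with 0 called, beside the male values above. Lyz2, a macrophage lysozyme, rose by 1.03 in GPER KO males (SE 0.19, adjusted p = 0.021). All 14 endothelial markers had lower means in GPER KO mice of both sexes, with medians of -0.33 in males and -0.29 in females and 0 called. Fibroblast markers had medians of 0.19 in males and 0.18 in females, with 0 of 13 called. Of 15 genes induced by cell isolation stress, 13 had lower means in GPER KO females (median -0.22), 9 in GPER KO males (median -0.026), and 1, Myc, was called in the mean of both sexes, at 0.27 (adjusted p = 0.0426). Myc, too, is among the genes the study listed from these same samples. The part of these marker lists in the values of the antioxidant genes was not tested.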

How the data were processed

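Total RNA of cardiomyocytes from 16 mice was hybridised to 16 arrays by the authors. The authors deposited 1 log2 value for each probe set and array, and the submitters' processing notes name RMA and Partek without versions. RMA as usually run corrects background, normalizes quantiles and summarises probes, which pulls array distributions together and compresses low signals. Scanner signals were not used here, and the 4 arrays per group limit the precision.

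Of 45141 probe sets, 28898 carry 1 gene in the platform annotation, 551 several and 15692 none. Only the first were used, with symbols updated through Entrez identifiers to RefSeq (GRCm38.p6, 28689 matched), giving 17097 genes. Apart from the percentiles of mean signal, taken over all 45141 probe sets, levels of different probe sets were not compared.

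Tests used limma 3.58.1 in R 4.3.3, with its lmFit, contrasts.fit and eBayes steps, on 4 group means over all 16 arrays, without a filter. GPER KO minus intact was tested in males, in females and as their mean, along with their difference (male minus female) and male minus female within each genotype. Adjusted p-values are Benjamini-Hochberg over all genes at a threshold of 0.05, intervals are 95%, and every p-value is two-sided. The test was checked on simulated data. Groups came from the labels, and mice of 1 group are separate animals.

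The members, classes and other gene lists were chosen with earlier results of these data known. Values on every array are given for members called in any contrast, the 3 with the smallest unadjusted p in each contrast, Nfe2l2, Nqo1, Hmox1, the 5 mitochondrial enzymes and the 2 with the largest within-group SD. From other lists, up to 4 called genes or the 2 with the smallest p were eligible. Gclc, Gclm, Gss, Gpx4, Gpx7, Prdx1, Prdx2, Prdx4, Cat, Txn1, Txnrd1 and the remaining members are given by ranges or differences. Alternatives were averaged probe sets of a gene, every probe set, a filter (above the 40 percentile on at least 4 arrays), renewed quantile normalization, median centring, array weights, eBayes with trend and robust settings, arrays of 1 sex alone, each array left out, female intact 421 and 422 left out together, and dual-location enzymes counted as mitochondrial.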

Additional observations from a re-analysis of the deposited data

Results flagged for a closer look

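In 6 of 148 sets of 4 mice (1 gene in 1 group), 1 mouse lay farther from the others than Dixon's 95% criterion allows. Chance alone flags about 1 set in 20. Hmox1 was 4.29 in female GPER KO 426, against 3.76 to 3.77 in the other 3 mice of that group. Gpx7 was 4.73 in female GPER KO 427, against 5.05 to 5.07 in the others. In male GPER KO 451, Gpx3 was 8.85 (others 9.15 to 9.21) and Gpx4 was 11.30 (others 11.15 to 11.18). Sod1 was 9.71 in male GPER KO 444, against 9.82 to 9.83 in the others. Nnt was 11.09 in male intact 453, against 11.26 to 11.29 in the others. The low Gpx3 value of mouse 451 was still above every male intact mouse. No member had groups that moved apart in opposite directions in the 2 sexes.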

How the results depend on the processing

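No paired analysis was possible because each animal number belongs to 1 mouse only. No member was called in females or for the difference between the sexes under any alternative. In males 1 member, Gpx3, was called with the filter, with array weights, with male arrays alone and without female intact 421 and 422 (0 as reported). In the mean of both sexes, where 1 member was called, the count was 2 with the mean of probe sets, 3 with array weights, 2 with trend and robust settings and 2 without 421 and 422. Between the sexes, the count of 1 fell to 0 in intact mice with the mean of probe sets and without 421 and 422, and to 0 in GPER KO mice with the mean of probe sets, every probe set, renewed quantile normalization and median centring. With 1 mouse left out in turn, the counts ranged over 0 to 1 in males, 0 to 2 in the mean, 0 to 1 between the sexes in GPER KO and 0 to 3 in intact mice.

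The median of cytosolic and secreted enzymes was 0.014 in the mean of both sexes with every probe set (0.083 as reported), and -0.011 between the sexes in intact mice without 421 and 422 (-0.076 as reported). The median of mitochondrial enzymes in females was -0.066 without 421 and 422, and that between the sexes in GPER KO mice was 0.13 with dual-location enzymes counted (0.060 as reported). Between the sexes in intact mice the mitochondrial median (-0.0091 as reported) was 0.028 with dual-location enzymes counted, 0.016 with renewed quantile normalization, 0.00035 with median centring and 0.0079 without 421 and 422, and the median of all members (-0.015 as reported) was 0.036 without 421 and 422. The median of mitochondrial enzymes in males turned to 0.022 with dual-location enzymes counted and spanned -0.055 to 0.0092 with 1 mouse left out (-0.016 as reported). Among single genes named, signs turned only with 1 mouse left out: Hmox1 in females spanned -0.0072 to 0.18, Nqo1 in females -0.10 to 0.037, Nfe2l2 -0.055 to 0.12 in females and -0.051 to 0.11 in males, and in males Prdx3 -0.055 to 0.0095 and Sod2 -0.042 to 0.0092. The cause of these changes was not tested. Hmox1 and Slc7a11 are read at low signal, where RMA values compress differences.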
